A study of Mus musculus with 15 samples.

Results

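The 10 genes described here encode enzymes that remove acetyl groups from histones (Hdac1, Hdac2, Hdac3, Hdac4, Hdac7 and Hdac9) or add them (Ep300, Crebbp, Kat2a and Kat2b). They were taken by name and are 10 of the 21631 protein-coding RefSeq genes on the chromosomes used. Each was examined over its RefSeq span on the mouse build GRCm38 plus 10 kb on either side, called its window. The chromatin was from EL4 cells, a T lymphocyte lymphoma line of C57BL/6N origin for which the labels give no treatment, so there was 1 group and no control condition. Lists of called intervals were analysed for ChIP-seq of H3K4me3, H3K9Ac, H3K27Ac, H3K36me2 and H3K27me3 and for ATAC-seq, which cuts open DNA with a transposase. Each of the 6 sets had 2 replicates, which the study describes as technical, so differences between replicates do not measure the spread between cultures. The lists give positions only. An interval states that signal was called, not how strong it was, the depth behind it is unknown, and no RNA level was used.

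Histone acetyltransferases place acetyl groups on lysines of histone tails and deacetylases take them off, and the balance between both sets how much acetylation a gene carries. Acetylated H3K27 and H3K9 mark active gene starts and enhancers, H3K4me3 marks active starts, H3K36me2 forms broad domains over gene bodies and between genes, and H3K27me3 is placed by Polycomb complexes over silent genes. HDAC1, HDAC2 and HDAC3 are class I deacetylases that act inside corepressor complexes, and class IIa enzymes such as HDAC4, HDAC7 and HDAC9 shuttle between nucleus and cytoplasm and bind transcription factors, with HDAC7 known from developing T cells. Acetylated H3K9 and H3K27 at these genes are thus products and substrates of the kinds of enzyme that the genes encode.

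H3K4me3, H3K9Ac, H3K27Ac, ATAC-seq and H3K36me2 intervals of both replicates were present in the windows of 10 of 10 genes, and H3K27me3 in both replicates in 0 of 10. By the same rule, 57.7% of protein-coding genes had H3K4me3, 56.3% had H3K9Ac, 57.6% had H3K27Ac, 53.7% had ATAC-seq, 53.8% had H3K36me2 and 24.3% had H3K27me3. A long window has more room for an interval, and the median window was 78.9 kb for the 10 genes against 37.3 kb for protein-coding genes. Among the 12482 protein-coding genes with H3K4me3 in both replicates, a background chosen after the data were examined, 97.1% had H3K27Ac, 90.5% ATAC-seq, 81.9% H3K36me2 and 13.5% H3K27me3, and against this background the counts of 10 stand out less. The H3K27me3 lists held 1 interval in all 10 windows, of 1799 bp, found in replicate 1 at 2345 bp from the start of Hdac2 and absent from replicate 2.

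EL4 identity was checked with lineage markers. H3K4me3 was found in both replicates in the windows of 9 of 9 T cell genes and at 7 of 7 of their listed starts, with H3K27me3 in 0 of 9. Of 5 B cell genes, 2 had H3K4me3 in the window and 0 of 3 at a listed start, and Ebf1, a B lineage transcription factor, had H3K27me3 over 60.9% and 62.3% of its window in replicates 1 and 2. Of 5 myeloid genes, 4 had H3K4me3 in the window and 0 of 2 at a listed start. Over the 10 windows, the overlap of the replicates (base pairs in both lists divided by base pairs in at least one) was 0.898 for H3K4me3, 0.835 for H3K9Ac, 0.839 for H3K27Ac, 0.647 for ATAC-seq and 0.589 for H3K36me2, so the acetylation and H3K4me3 lists placed their intervals more alike than the ATAC-seq and H3K36me2 lists.

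At gene starts, the stretch searched was 1 kb on either side of each start, so that gene length did not enter. Starts were those of the RefSeq promoter table, which lists 8 of the 10 genes, with 4 starts for Hdac7, 2 each for Hdac9 and Kat2b and 1 for the others, and a gene was counted when any of its starts was marked. Hdac1 and Hdac3 are described by the ends of their spans. Within 1 kb of a listed start, 7 of 8 genes had H3K4me3 in both replicates, against 45.9% of 17274 protein-coding genes with a listed start. H3K9Ac and H3K27Ac were each found at 7 of 8, against 45.3% and 45.4%, and ATAC-seq at 6 of 8, against 41.2%. H3K4me3, H3K9Ac, H3K27Ac and ATAC-seq occurred together at 6 of 8, against 40.7%. The gene without any of the 4 was Hdac9, and Kat2a had the 3 histone marks but no ATAC-seq interval. H3K36me2 was found at 3 of 8 starts (Hdac7, Kat2a and Kat2b), against 15.3%, and H3K27me3 at 0 of 8, against 7.09%. Without replicate 1, H3K36me2 was found at 5 of 8, against 21.5%. Of the 7921 protein-coding genes with H3K4me3 at a listed start, 98.6% had H3K9Ac there, 98.3% H3K27Ac and 89.3% ATAC-seq. H3K36me2 was found at 25.0% of them and H3K27me3 at 0.795%. Against this background, also chosen after the data were examined, the start counts stand out less.

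**Figure D1:**
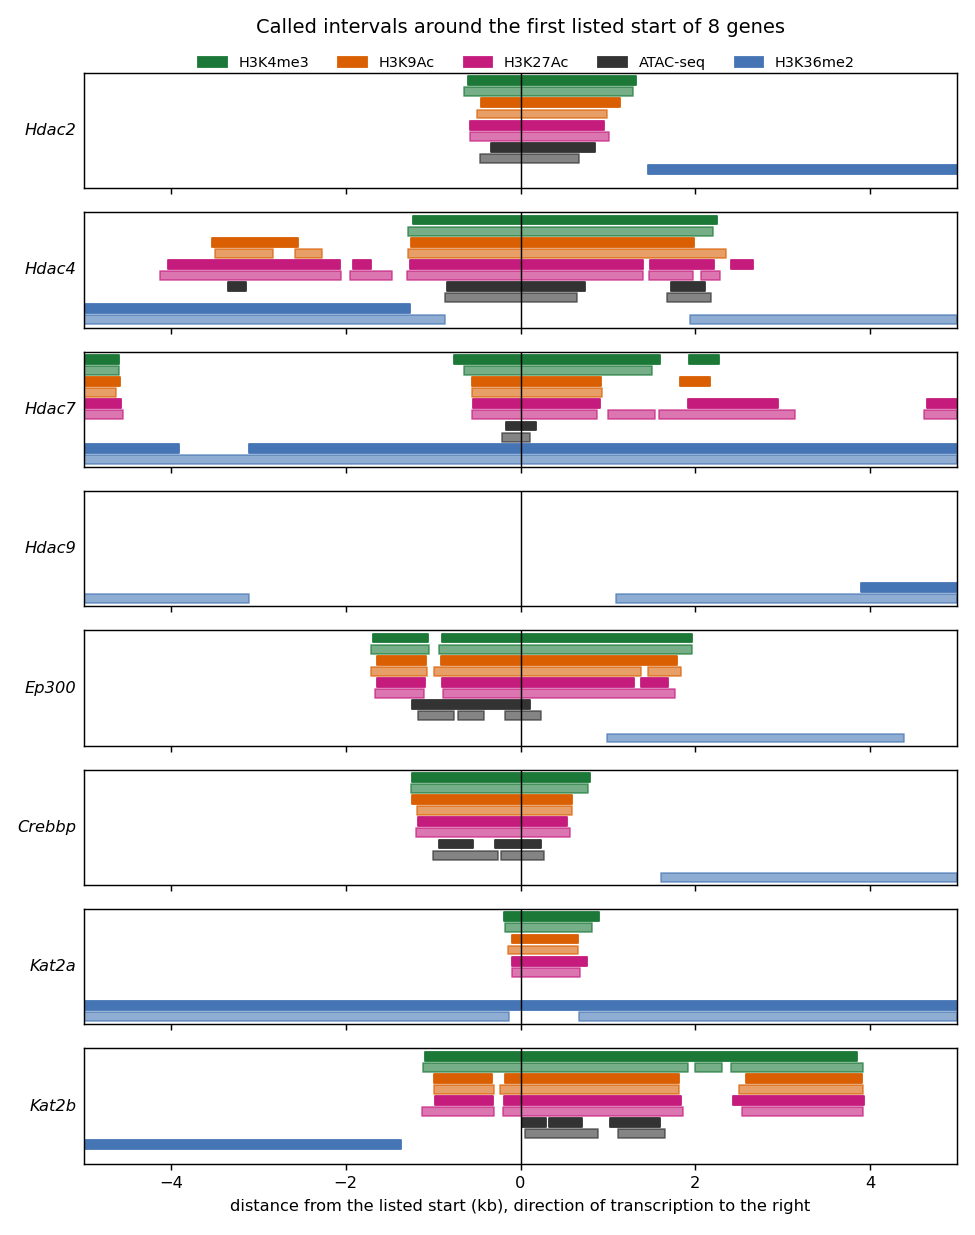
Called intervals from 5 kb before to 5 kb after the first listed start of 8 genes, drawn in the direction of transcription, with distance in kb on the x axis. Each colour is a set, with replicate 1 in the upper row at full colour and replicate 2 below it in a paler tone. Hdac9 had no H3K4me3, H3K9Ac, H3K27Ac or ATAC-seq interval in this range, and Kat2a had no ATAC-seq interval. At Hdac4, H3K36me2 lay before the start in both replicates and, in this range, after it in replicate 2 only.

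The promoter sequences differed in composition. The RefSeq table holds 250 bases before to 50 after each start (GRCm38.p6), and 13 such promoters belonged to 8 of the 10 genes. A promoter with an ATAC-seq interval of both replicates over it was found at Hdac2, Hdac4, Hdac7 (the start at 97831495), Ep300 and Crebbp, and these held 36, 32, 31, 30 and 49 CpG dinucleotides, against a median of 13 over 21045 protein-coding promoters. Promoters not covered by ATAC-seq in both replicates held 35, 6 and 5 CpG at the other Hdac7 starts (97831767, 97844502 and 97814863), 19 at Kat2a, 11 and 6 at Kat2b and 0 and 3 at Hdac9. The ranges of both kinds overlapped only through the Hdac7 promoter at 97831767, which held 35 CpG and no ATAC-seq base pair in either replicate. That promoter shares bases with the one at 97831495. Its start lay 107 and 61 bp from the same ATAC-seq interval in replicates 1 and 2. The promoter of Hdac4 is printed as the one with most motif matches, that of Crebbp as the richest in CpG, and those of Kat2a and Hdac9 as the start without ATAC-seq and the start without marks, the last 3 having been chosen after their values were seen. They are read 5′ to 3′ on the minus strand, at chr1:92180292-92180591 for Hdac4, chr16:4213355-4213654 for Crebbp, chr11:100712418-100712717 for Kat2a and chr12:34917046-34917345 for Hdac9, and capitals mark the motif matches named in the next paragraph.
Hdac4: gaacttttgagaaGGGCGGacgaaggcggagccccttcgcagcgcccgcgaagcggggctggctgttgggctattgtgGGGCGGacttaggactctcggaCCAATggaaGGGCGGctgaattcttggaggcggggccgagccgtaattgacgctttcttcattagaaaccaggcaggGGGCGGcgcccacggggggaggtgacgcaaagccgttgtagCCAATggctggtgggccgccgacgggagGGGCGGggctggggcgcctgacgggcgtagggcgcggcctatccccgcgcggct
Crebbp: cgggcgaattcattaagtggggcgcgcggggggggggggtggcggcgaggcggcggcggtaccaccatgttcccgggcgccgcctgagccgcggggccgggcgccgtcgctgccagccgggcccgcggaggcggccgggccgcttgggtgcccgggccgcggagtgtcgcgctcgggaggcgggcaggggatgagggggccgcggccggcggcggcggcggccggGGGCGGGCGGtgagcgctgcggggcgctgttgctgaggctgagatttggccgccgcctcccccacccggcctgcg
Kat2a: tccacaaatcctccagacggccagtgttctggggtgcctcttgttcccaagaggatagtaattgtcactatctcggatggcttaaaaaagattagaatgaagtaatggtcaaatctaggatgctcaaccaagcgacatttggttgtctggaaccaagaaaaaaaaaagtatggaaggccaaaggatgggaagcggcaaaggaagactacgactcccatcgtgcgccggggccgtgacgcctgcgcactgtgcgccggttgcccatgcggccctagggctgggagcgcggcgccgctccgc
Hdac9: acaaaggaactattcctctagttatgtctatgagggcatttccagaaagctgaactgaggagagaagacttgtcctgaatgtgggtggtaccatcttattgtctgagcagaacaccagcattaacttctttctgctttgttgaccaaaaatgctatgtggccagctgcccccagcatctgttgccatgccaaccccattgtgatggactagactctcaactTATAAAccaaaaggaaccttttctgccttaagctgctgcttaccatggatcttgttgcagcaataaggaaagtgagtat

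The motifs searched on both strands were GGGCGG (found in 46.7% of 21045 promoters), CCAAT (38.5%), CCGGAA (18.9%), TATAAA (12.7%), CACGTG (7.91%), TGTGGT (14.7%) and TGACGT (8.58%). Hdac4 held 5 matches to GGGCGG, the letters bound by SP family factors, and 2 to CCAAT. Crebbp held 2 overlapping matches to GGGCGG, and there was no overlap between different motifs. The Hdac9 promoter shown held 1 match to TATAAA, and the Kat2a promoter had no match to any of the 7 motifs. A match is a description of these letters and no evidence of binding.

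Start widths below are the summed widths of all intervals that touch 1 kb on either side of a start, which can be more than 1 interval. Among the class I deacetylases, Hdac2 (chr10:36974297-37001889) had the simplest window, with 1 interval of each active set, all at its start. H3K4me3 measured 1915 and 1929 bp in replicates 1 and 2 (1922 ± 9.90 bp, SD, n = 2), H3K9Ac 1593 and 1481 bp, H3K27Ac 1535 and 1595 bp and ATAC-seq 1198 and 1135 bp. The H3K4me3 width was near the middle of the genes with such an interval (47.1% were narrower), whereas the ATAC-seq width exceeded that of 90.7%. No H3K36me2 was called within 1 kb of this start, and the nearest interval lay 1457 bp away in replicate 1 and 15057 bp away in replicate 2.

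At Hdac1 (chr4:129516104-129542646), the active marks lay at the end of the span with the higher coordinate. H3K4me3 there measured 1734 and 1799 bp (1767 ± 46.0 bp, SD, n = 2), H3K27Ac 1663 and 1651 bp and ATAC-seq 390 and 543 bp, and none of the 4 active sets was called at the other end. A second site lay inside the gene, 9076 bp above the lower end for H3K9Ac, where an H3K27Ac interval of 1018 bp and an ATAC-seq interval of 336 bp (both replicates merged) were called without H3K4me3. The remaining H3K4me3 interval of the window, 1209 bp, touched Marcksl1, and the far edge of the window reached into Lck, the kinase of the T cell receptor.

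Hdac3 (chr18:37936971-37955015) had H3K4me3 of 1595 and 1532 bp (1564 ± 44.5 bp, SD, n = 2), H3K9Ac of 1371 and 1438 bp, H3K27Ac of 1477 and 1464 bp and ATAC-seq of 445 and 432 bp at its higher end. The gene Rell2 begins its span at 37955054, just beyond that end, and the marks of both genes cannot be told apart. The other active intervals of the window touched the neighbour Diaph1, among them an H3K4me3 peak of 1486 bp. When base pairs of other genes and 3 kb around them were removed, Hdac3 and Kat2a kept no active interval, and 8 of 10 genes still had H3K4me3.

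The class IIa gene Hdac4 (chr1:91928779-92195702) had wide marks at its start. H3K4me3 measured 3478 and 3480 bp (3479 ± 1.41 bp, SD, n = 2), wider than at 91.9% of 7921 genes. H3K9Ac measured 3235 and 3633 bp (3434 ± 281 bp), wider than at 95.3%. ATAC-seq covered 1572 and 1509 bp (1541 ± 44.5 bp), wider than at 97.9% of 7114 genes, so the widest ATAC-seq start of the 8 genes was that of Hdac4. A site further inside the gene carried H3K4me3 (556 bp), H3K27Ac (657 bp) and ATAC-seq (727 bp) in both replicates and H3K9Ac in one replicate. Its H3K4me3 intervals lay 100018 and 100048 bp from the listed Hdac4 start in replicates 1 and 2.

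Hdac7 (chr15:97792661-97844502) carried the most acetylation. H3K27Ac covered 25.0% and 28.4% of its window in replicates 1 and 2 (26.7% ± 2.46, SD, n = 2), more than in 98.6% of protein-coding genes and more than in 97.6% of those with H3K4me3. The next of the 10 genes was Hdac3, with 9.80% and 9.71%, part of it inside the neighbour Diaph1. The lists held 21 and 20 H3K27Ac intervals in the Hdac7 window, which merged into 17 peaks touched by both replicates, against 10 for H3K9Ac, 6 for H3K4me3 and 3 for ATAC-seq. Part of this belonged to Slc48a1, a heme transporter gene that starts in the window. With other genes and 3 kb around them removed, 32.0 kb of the window remained and H3K27Ac covered 11.7% and 15.6% of it. That removal also took out Gm33636, a long noncoding RNA that overlaps the Hdac7 starts at 97831495 and 97831767.

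Hdac7 has 4 listed starts. The starts at 97831495 and 97831767 lay under one H3K4me3 interval of 2365 and 2152 bp, and that at 97844502 under one of 2550 and 3620 bp. The start at 97814863 had H3K27Ac of 292 and 222 bp and H3K36me2 but no H3K4me3, H3K9Ac or ATAC-seq. ATAC-seq at 97831495 measured only 348 and 326 bp (337 ± 15.6 bp, SD, n = 2), narrower than at most genes (6.85% were narrower). The H3K27Ac interval over that start measured 1455 and 1429 bp. In replicate 2 a further H3K27Ac interval of 544 bp lay 999 bp away and so adds to the summed width. At 97844502, H3K27Ac measured 2853 and 2765 bp, wider than at 89.0% of genes. At 97844502, ATAC-seq was called in replicate 1 (288 bp) and not in replicate 2. The gene with the most H3K27Ac of the 10 thus had the smallest summed ATAC-seq width of the 6 genes with ATAC-seq at a start, although single intervals of 272 bp (Kat2b, replicate 1) and 305 bp (Ep300, replicate 2) were narrower.

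Hdac9 (chr12:34047580-34917095) had its active marks away from its listed starts. Within the window, the nearest H3K27Ac interval lay 110045 and 109975 bp from the start at 34917095, and 151660 and 131650 bp from that at 34528889. An interval 30314 and 30263 bp from 34917095 lay on the other side, beyond the window. Its window of 889.5 kb nevertheless held 12 and 13 H3K27Ac intervals, which covered 0.774% and 0.804% of it, and 11 of these peaks were shared by both replicates. The widest H3K4me3 peak, 1982 bp, began 665243 bp above the lower end of the span and touched H3K9Ac (1122 bp) and H3K27Ac. The ATAC-seq lists had 4 and 2 intervals here and shared 1 of them, of 465 bp, at an H3K4me3 peak of 1066 bp. The other RefSeq genes in this window were noncoding RNAs and a pseudogene. An H3K4me3 peak of 463 bp lay inside one of them, Gm51984, and began 379 bp above its lower end.

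**Figure D2:**
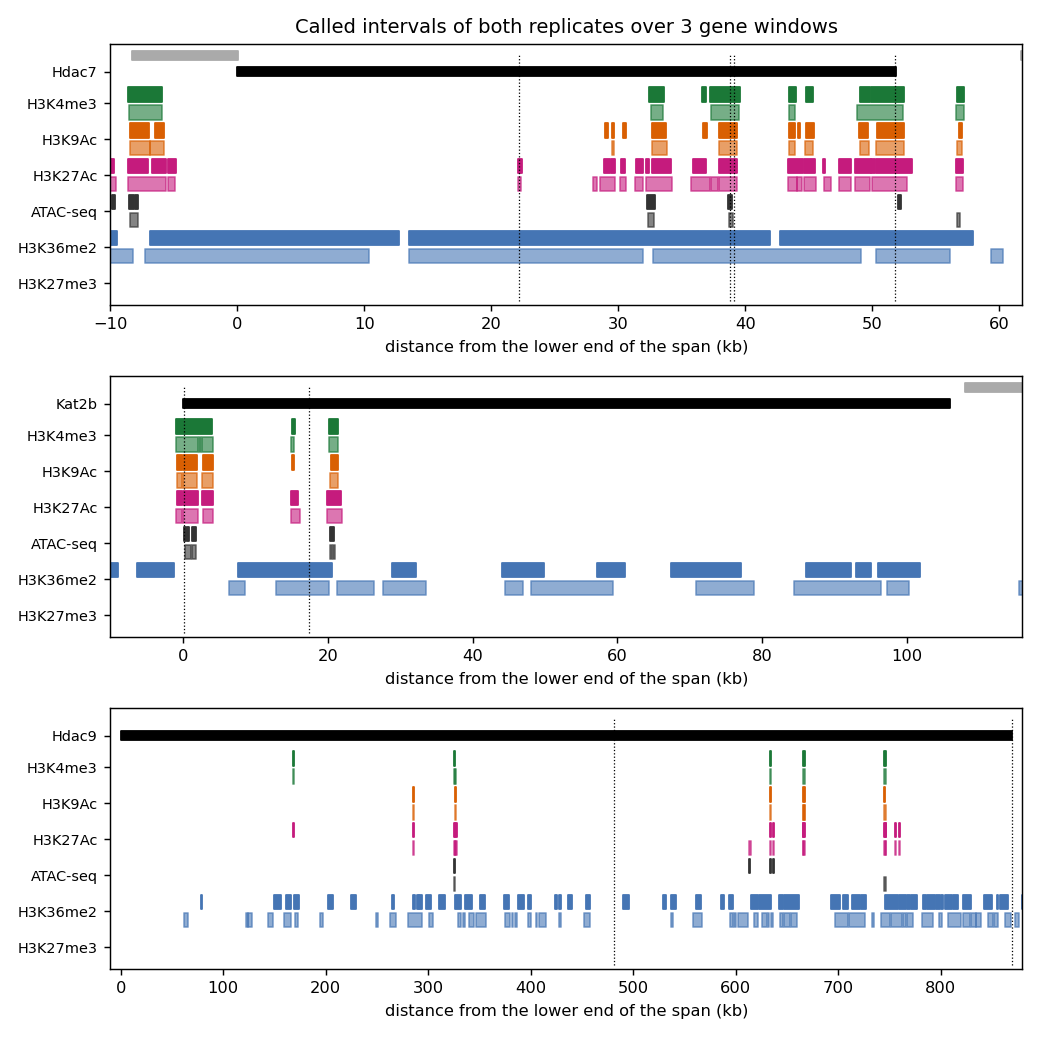
Called intervals over the windows of Hdac7, Kat2b and Hdac9, with distance in kb from the lower end of the gene span on the x axis. Rows are the 6 sets, replicate 1 above replicate 2 in a paler tone, the black bar is the gene span, grey bars are other protein-coding genes, dotted lines are listed starts, and very narrow intervals were drawn at a minimum width. Hdac7 held 17 shared H3K27Ac peaks but 3 shared ATAC-seq peaks. Kat2b had its active marks toward the lower end of the span, at its first start and on either side of its second. Hdac9 had no active mark at either listed start, and no H3K27me3 was called.

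The paralogs Ep300 (chr15:81586209-81652077) and Crebbp (chr16:4081334-4213957), which encode coactivators that acetylate H3K27, had their active marks at the start and nowhere else inside the gene. At Ep300, H3K4me3 measured 2860 and 2898 bp (2879 ± 26.9 bp, SD, n = 2), H3K27Ac 2189 and 2664 bp and ATAC-seq 1351 and 1138 bp. At Crebbp, H3K4me3 measured 2038 and 2025 bp (2032 ± 9.19 bp), H3K27Ac 1710 and 1753 bp and ATAC-seq 920 and 1235 bp. The H3K4me3 replicates of the paralogs did not overlap, with Ep300 the wider, whereas the ATAC-seq replicates did. A second, narrower H3K4me3 peak of 658 bp lay 1050 bp from the Ep300 start, and the second one in the Crebbp window, 1723 bp, touched Trap1.

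Kat2a (chr11:100704746-100712485) and Kat2b (chr17:53566774-53672721), which encode the GCN5 and PCAF enzymes that acetylate H3K9, differed in width. At Kat2a, H3K4me3 measured 1081 and 995 bp (1038 ± 60.8 bp, SD, n = 2), H3K9Ac 758 and 798 bp and H3K27Ac 858 and 777 bp, and 4.95%, 5.73% and 8.13% of genes with such an interval were narrower, so that Kat2a was the narrowest of the 7 genes for these marks. Its nearest ATAC-seq interval was 9700 and 9595 bp away, inside Dhx58. Kat2a and Dhx58 are neighbours, and an ATAC-seq call in the Kat2a window therefore did not lie at the Kat2a start.

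At Kat2b, H3K4me3 within reach of the first start measured 4945 and 3037 bp (3991 ± 1349 bp, SD, n = 2), wider than at 95.4% of genes. In replicate 2 it was narrower than at Hdac4 and Hdac7. Replicate 1 held 1 interval there, whereas replicate 2 listed further intervals of 310 and 1508 bp beyond the one at the start. H3K9Ac measured 2657 and 2749 bp in sum, as intervals of 661 and 1996 bp in replicate 1 and 692 and 2057 bp in replicate 2, wider than at 88.1% of genes. H3K27Ac measured 2682 and 2888 bp in sum, as intervals of 661 and 2021 bp and of 834 and 2054 bp, wider than at 88.8%. ATAC-seq, at 653 bp (2 intervals) and 838 bp (1 interval), was of ordinary width (60.1% of genes were narrower) and began 15 and 52 bp past the start. The second listed start, 53584126, had none of the 4 active sets within 1 kb but was covered by H3K36me2 over its whole 2001 bp in both replicates, and it was through this start that Kat2b counted among those with H3K36me2. Active peaks of both replicates lay further out on either side of it. Past it lay H3K4me3 (1276 bp, 2864 bp away), H3K9Ac (1113 bp), H3K27Ac (2074 bp) and ATAC-seq (755 bp). Before it lay H3K4me3 (528 bp, 1840 bp away) and H3K27Ac (1206 bp, 1228 bp away).

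Across the genes with an interval, the median start width was 2879 bp for H3K4me3 over 7 genes, against 1975 bp over 7921 protein-coding genes. The medians were 2174 against 1669 bp for H3K9Ac, 2427 against 1646 bp for H3K27Ac and 1122 against 667 bp for ATAC-seq over 6 genes. These widths depend on the caller and on depth, and a gene with several listed starts contributed the widest of them, which favours genes such as Hdac7.

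**Figure D3:**
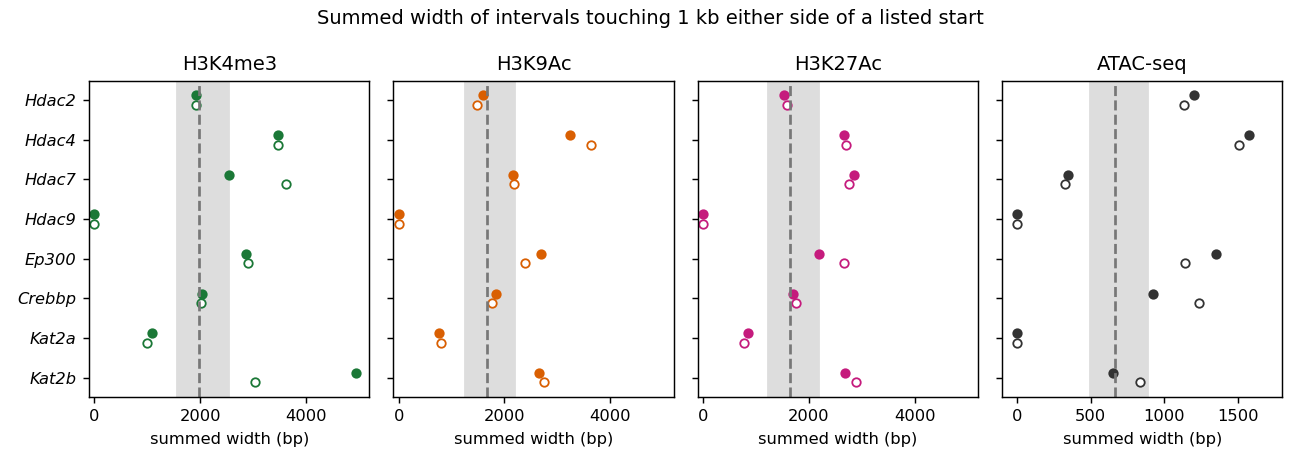
Summed width in bp of the intervals that touch 1 kb on either side of a listed start, for 8 genes and 4 sets. Filled points are replicate 1, open points replicate 2, a point at 0 means no interval, the dashed line is the median and the grey band the quartiles of protein-coding genes with such an interval. Hdac4, Hdac7, Ep300 and Kat2b lay to the right of the H3K4me3 band in both replicates, Kat2a lay to its left, and the ATAC-seq points of Hdac7 lay left of the ATAC-seq band.

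H3K36me2 coverage ranged widely among the 10 genes. It covered 88.7% and 84.8% of the Hdac7 window in replicates 1 and 2 (86.8% ± 2.76, SD, n = 2) and 85.7% and 86.5% of the Hdac4 window (86.1% ± 0.592). Kat2a had 76.7% and 71.0% (73.8% ± 4.08), and Hdac1 had 71.0% and 70.6% (70.8% ± 0.305). Hdac3 had 59.5% and 89.0% (74.2% ± 20.8), the largest disagreement between replicates, since an interval of 16799 bp over the gene was called in replicate 2 only. These 5 genes lay above the upper quartile of protein-coding genes, 48.7%, in each replicate.

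Kat2b followed with 44.3% and 46.3% (45.3% ± 1.40, SD, n = 2), below the 5 and above the rest in both replicates. Ep300 had 30.4% and 33.5%, Hdac9 29.4% and 30.1%, Hdac2 33.2% and 21.8% and Crebbp 31.6% and 20.4%. Replicates of neighbours in the order overlapped among the upper 5 and among Hdac9, Hdac2 and Crebbp, and the lower Ep300 replicate lay just above the higher Hdac9 replicate. The steps from Hdac1 to Kat2b and from Kat2b to Ep300 exceeded the replicate spread. The median over the 10 genes was 58.0%, against 10.5% for protein-coding genes and 40.0% for those with H3K4me3 in both replicates. With 2 technical replicates a side, an exact permutation test cannot go below p = 0.333, and none was run.

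**Figure D4:**
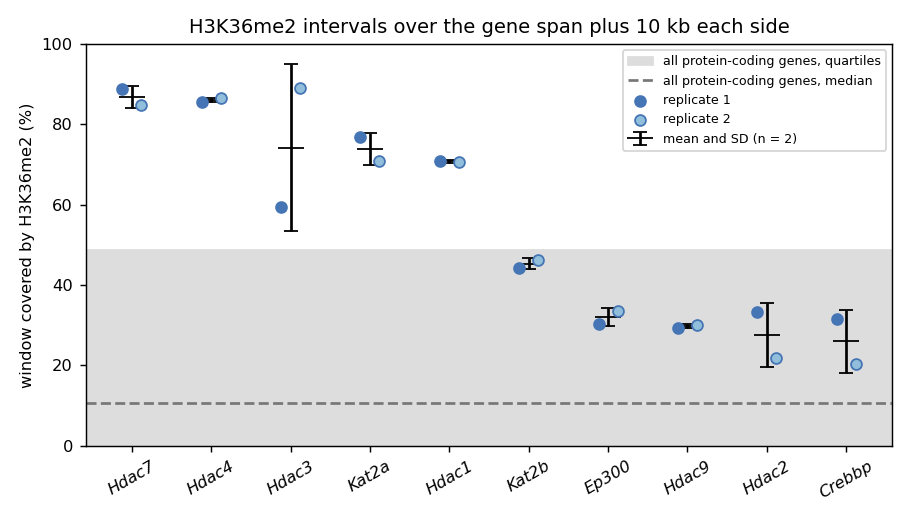
Percent of each gene's window covered by H3K36me2 intervals, with genes ordered by their mean. Filled points are replicate 1, pale points replicate 2, black bars the mean and SD (n = 2), the dashed line the median of 21631 protein-coding genes and the grey band their quartiles. Hdac7, Hdac4, Hdac3, Kat2a and Hdac1 lay above the band in both replicates, and the other 5 lay inside it.

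The domains also differed in shape. Hdac4, with a span of 266924 bp, held the longest ones, 81599 bp in replicate 1 and 129999 bp in replicate 2, and its span was covered to 90.8% and 93.0% while its flanks were covered to 16.9% and 0%. At Hdac1 the span was covered to 96.8% and 95.7% and the flanks to 36.7% and 37.2%. Hdac7 (96.9% and 90.0% of the span, 67.5% and 71.5% of the flanks) and Kat2a (100% and 91.1%, 67.7% and 63.1%) lay in domains that ran into neighbouring genes. Ep300 had 39.2% and 43.7% in its span and 1.39% and 0% in its flanks. Hdac9, with 51 and 52 intervals of at most 14199 and 15399 bp, had many short domains. Replicates placed them differently at Ep300 and Crebbp, where only 0.262 and 0.260 of the covered base pairs were shared, against 0.901 at Hdac4 and 0.925 at Kat2a.

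Whether H3K36me2 reached the active marks also varied by gene. Of the H3K4me3 base pairs in a window, 85.1% and 71.7% lay inside H3K36me2 at Hdac7 and 100% and 58.5% at Kat2a. The share was 0% and 0% at Hdac2, 4.95% and 0% at Crebbp and 0% and 27.6% at Ep300. At Hdac4 it was 13.8% and 30.0%, so that this heavily covered gene kept a gap at its start, with 0 and 141 of 2001 bp covered. Over the 10 windows together it was 36.1% and 33.7%, against 25.1% and 21.1% over the windows of protein-coding genes, and for H3K27Ac it was 51.8% and 55.2%, against 36.8% and 33.8%. Hdac7 contributed 9926 of the 15819 bp of H3K4me3 and 16313 of the 28825 bp of H3K27Ac inside H3K36me2 in replicate 1. Without Hdac7, an alternative added after the data were examined, the shares over the other 9 windows were 18.3% and 21.4% for H3K4me3 and 33.2% and 39.9% for H3K27Ac, below the share of protein-coding windows in replicate 1 and above it in replicate 2, so an excess in both replicates was seen only with Hdac7 included.

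Peaks away from starts were counted where both replicates touched a merged peak over 3 kb from any listed start (for genes without one, from both span ends). H3K27Ac peaks of this kind were found in 5 of 10 windows, against 16.6% of protein-coding genes. The counts were 3 of 10 for H3K4me3 (against 12.8%), 3 of 10 for H3K9Ac (against 11.7%) and 4 of 10 for ATAC-seq (against 12.0%). Here too a longer window has more room, and Hdac9 with its window of 889.5 kb held 11 of the 24 H3K27Ac peaks. Hdac7 held 8, Hdac3 and Hdac4 held 2 each, and Hdac1 held 1. The peaks in the Hdac3 window lay outside the Hdac3 span, inside the neighbouring gene Diaph1. Hdac2, Ep300, Crebbp, Kat2a and Kat2b held 0.

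Of these 24 peaks, 5 touched ATAC-seq intervals of both replicates, 10 those of H3K9Ac, 8 those of H3K4me3, 18 those of H3K36me2 and 0 those of H3K27me3. Among 10502 such H3K27Ac peaks on all chromosomes used, by the same rule, 31.9% touched ATAC-seq, 47.5% H3K9Ac, 46.3% H3K4me3 and 48.0% H3K36me2. Each of the 8 peaks at Hdac7 touched H3K36me2 and 1 touched ATAC-seq, and of the 11 at Hdac9, 5 touched H3K36me2 and 1 touched ATAC-seq.

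Related genes were read by the same rule, from lists of other enzymes and of their partners. Of 12 other deacetylases, 11 had H3K4me3 in the window in both replicates and 10 of 11 at a listed start. The exception was Hdac11, the class IV deacetylase, with no active mark and with H3K27me3 over 29.0% and 24.4% of its window. All 18 other acetyltransferases had H3K4me3 in the window and 14 of 14 at a listed start, and H3K27me3 was called in both replicates at 2 of them, Kat5 (15.3% and 14.7%) and Clock (5.01% and 1.39%). H3K36me2 covered a median of 37.1% of the window for the other deacetylases, 30.6% for the other acetyltransferases, 60.8% for deacetylase complex subunits, 47.4% for acetyltransferase complex subunits and 55.4% for acetyl-lysine readers, against 58.0% for the 10 genes. The lists were not limited to autosomes, on which all 10 genes lie.

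Of 31 subunits of deacetylase complexes, 30 had H3K4me3 in the window and 23 of 25 at a listed start. The subunits without it at the start were Sap18 and Mbd3, a NuRD component, and H3K27me3 was called at Dnttip1 (8.02% and 1.94%). Of 24 subunits of acetyltransferase complexes, 23 had H3K4me3 in the window and 20 of 21 at a listed start. Sgf29, a SAGA subunit, had it in neither, and Mbip had H3K27me3 over 13.6% and 14.2% of its window. Of 30 acetyl-lysine readers, 29 had H3K4me3 in the window and 22 of 24 at a listed start. Brdt, the testis-specific BET protein gene, lacked it at the start and had H3K27me3 over 27.8% and 17.9%, Baz2b lacked it at the start, and Cecr2 had H3K27me3 over 33.3% and 56.2% of its window and no active mark.

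The gene most like each of the 10 was the protein-coding gene over 1 Mb away with the smallest mean absolute difference in percent of window covered over the 12 libraries. It was Mgat4a for Hdac1 (0.404 percentage points), Trim21 for Hdac2 (0.675), Srpr for Hdac3 (0.812), Nod1 for Crebbp (0.381), Cnih2 for Kat2a (0.519), Psma5 for Kat2b (0.586) and Edil3 for Hdac9 (0.218). Of the 8 matches given, that of Hdac7 was the least close, Dok3, at 1.77 points. The nearest of the other 9 was always further off, which is likely from the outset when 9 genes are set against all protein-coding genes. Between 55 (Kat2a) and 1551 (Hdac7) protein-coding genes were nearer than that member. Percentages were not rescaled between sets, so H3K36me2, with the widest range, can weigh most. For Hdac1 and Kat2a, the closest pair among the 10, the difference was 1.24 points, and for Hdac7 it was 7.97 points, to Hdac3.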

How the data were processed

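EL4 cells were profiled by ChIP-seq for 5 histone marks and by ATAC-seq, with 2 replicates each. Per the labels and methods, the authors aligned reads to GRCm38 with STAR 2.5, kept unique alignments, treated duplicates with Picard, and used MACS2 for the ATAC-seq and narrow-mark lists and Epic for H3K36me2 and H3K27me3, with input chromatin as the ChIP-seq control. The methods name technical replicates. They also state that reads on chromosomes X and Y were left out, whereas chromosome X was among the chromosomes used here. The authors deposited 1 list a replicate with chromosome, start and end of each interval, in base pairs, with no score, count or normalization, so depth is unknown and no confidence interval was computed. A weaker library can yield fewer or shorter intervals. The input and both RNA-seq samples were not used here.

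Intervals were made 1-based and matched to RefSeq positions (GRCm38.p6). A gene was called for a set when each replicate had an interval sharing at least 1 bp with its span plus 10 kb each side, or with 1 kb either side of a listed start. Covered base pairs, widths and merged peaks were computed with Python 3.11.15, numpy 2.4.6 and pandas 2.3.3. The counting was tested on simulated data, where 200 of 200 planted genes were recovered, and 0 of 21631 genes differed from bedtools 2.31.1. No test was run, since 2 technical replicates give none. Alternatives left out each replicate, changed the flank, the minimum width, the overlap, the start window and the background, or removed neighbouring genes. The genes and gene lists were chosen with earlier results of these data known. All 10 genes were named, and of the lists only genes that went against most of their list for H3K4me3 at the start or H3K27me3 in the window, apart from Ebf1, which was chosen after its values were seen. The most alike genes of Hdac4 and Ep300 are not reported here.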

Additional observations from a re-analysis of the deposited data

How the results depend on the processing

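Of 166 alternative values, 126 stayed within the limit set for no change and 40 moved. Percent of window covered moved in 24 of 42 and start width in 6 of 12. Peaks away from starts moved in 6 of 16 and gene counts at the start in 1 of 24. Among counts of genes with an interval in the window, 69 of 72 stayed. For H3K27me3 the count was 0 of 10 without replicate 1, against 28.4% of protein-coding genes, and 1 without replicate 2, against 29.1%. With 20 kb flanks it was 1, against 30.2%. For ATAC-seq it was 6 when only intervals of at least 500 bp were kept, a rule under which the protein-coding share fell from 53.7% to 32.7%. At the start, the H3K36me2 count was 5 of 8 without replicate 1, against 21.5%, and 3 of 8 without replicate 2, against 22.5%. The median H3K36me2 coverage was between 51.9% and 58.4% without a replicate, and 51.3% with 20 kb flanks. The median H3K4me3 start width was between 2550 and 2898 bp without a replicate, and 3479 bp when intervals within 1000 bp were merged. Counting peaks over 1 kb from any start gave 12 for H3K4me3, 18 for H3K9Ac and 8 for ATAC-seq, against 7, 10 and 4 at 3 kb. The share of protein-coding windows with such a peak rose to 16.4%, 16.1% and 15.9%, from 12.8%, 11.7% and 12.0%. The H3K27Ac count rose from 24 to 36, which was still within the limit set for no change, and the share from 16.6% to 21.5%. Without a replicate, ATAC-seq gave between 7 and 10 and H3K9Ac between 12 and 16 such peaks. The shares were then between 13.9% and 16.3% for ATAC-seq and 12.9% for H3K9Ac. The causes were not tested, beyond that requiring 1 replicate admits more peaks than requiring both. No paired analysis was possible because the results come from no test.

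Interval lists hide signal strength, a missing interval is not the absence of a mark, and RefSeq lists a start for 8 of the 10 genes. Window counts include intervals of neighbouring genes.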
